A study of Rattus norvegicus with 4 samples.

Results

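A set of 48 cell cycle and proliferation genes was examined in the glomeruli of Adriamycin-treated rats. The genes were taken by symbol from a table of 13261 genes, and 46 of the 48 had a row. Ccnb2, which encodes cyclin B2, and E2f1, a transcription factor of the G1 to S transition, were not analysed here. By role, the 46 genes comprised 14 S-phase genes, 21 mitosis genes, 8 G1 cyclins and kinases and 3 inhibitors of cyclin-dependent kinases.

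The data were polyadenylated RNA of sieved glomeruli from male Wistar rats, labelled as weighing 150 to 175 g, that had received Adriamycin (ADR, doxorubicin) intravenously. All 4 samples carry the treatment label ADR and form a single group, so that levels and the spread between samples can be described but no response to ADR. The rats' age and dose are not among the labels, harvest is given as day 11 or 21 without assignment to samples, and no untreated animals were analysed here. The samples are called replicates 1 to 4. The labels do not say that each came from a different rat, so p-values measure the spread between these samples, which may be technical.

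The genes act in sequence through the division cycle. D-type cyclins with CDK4 and CDK6, and E-type cyclins with CDK2, phosphorylate the retinoblastoma protein and release E2F factors, while the CDK inhibitors p27 (Cdkn1b), p57 (Cdkn1c) and p18 (Cdkn2c) restrain these kinases. E2F factors drive the genes of DNA replication, in which CDC6 and CDT1 load the MCM2 to MCM7 helicase on DNA. Genes of mitosis are switched on later by the B-MYB and FOXM1 factors through a promoter element called CHR (cell cycle genes homology region), commonly beside CCAAT boxes. In the healthy adult glomerulus most cells are at rest, and podocytes are known for high p57 and p27 and for rarely completing division. Doxorubicin is known to trap topoisomerase II on DNA.

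Replicates 1 to 4 carried 13566962, 16207027, 15348629 and 15244063 reads over the 13261 genes. Values are in CPM (reads of a gene scaled to a total of 1000000 reads per sample) or in log2 CPM, and the reads themselves were recovered from the deposited values. Podocyte markers were abundant under the glomerular label, with a summed level for 6 genes of 5032 to 8697 CPM, and 5 proximal tubule markers summed to 2196 to 4496 CPM. These are bulk samples, in which fewer cells of a type and less RNA per cell cannot be told apart.

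Most cell cycle genes were present at few reads. Per sample, the 46 genes had from 28 reads (Ccne1, replicate 4) to 8497 reads (Ccnd1, replicate 3), and 32 of them had a mean below 439 reads, the median over all genes. Their median level was 4.27 log2 CPM, beside 4.85 log2 CPM over all genes. CPM is not corrected for transcript length and no lengths were used, so the order of different genes in CPM or reads is not an order of transcript number. The 14 S-phase genes together took 0.036%, 0.0364%, 0.0425% and 0.0336% of reads in replicates 1 to 4, and the 21 mitosis genes took 0.0401%, 0.0356%, 0.0419% and 0.0311%. The 95% Wilson interval of the mitosis share, which covers counting error only, was 0.039% to 0.0412% for replicate 1 and 0.0409% to 0.0429% for replicate 3. It was 0.0346% to 0.0365% for replicate 2, while replicate 4 had 0.0302% to 0.032%. Replicates 1 and 3 thus overlapped each other and lay above replicate 2, and replicate 4 was lowest. The totals include mitochondrial genes, which took 7.46%, 12.5%, 9.34% and 7.56% of reads in replicates 1 to 4. These intervals, and the overlap of replicates 1 and 3, hold for those totals only.

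**Figure D1:**
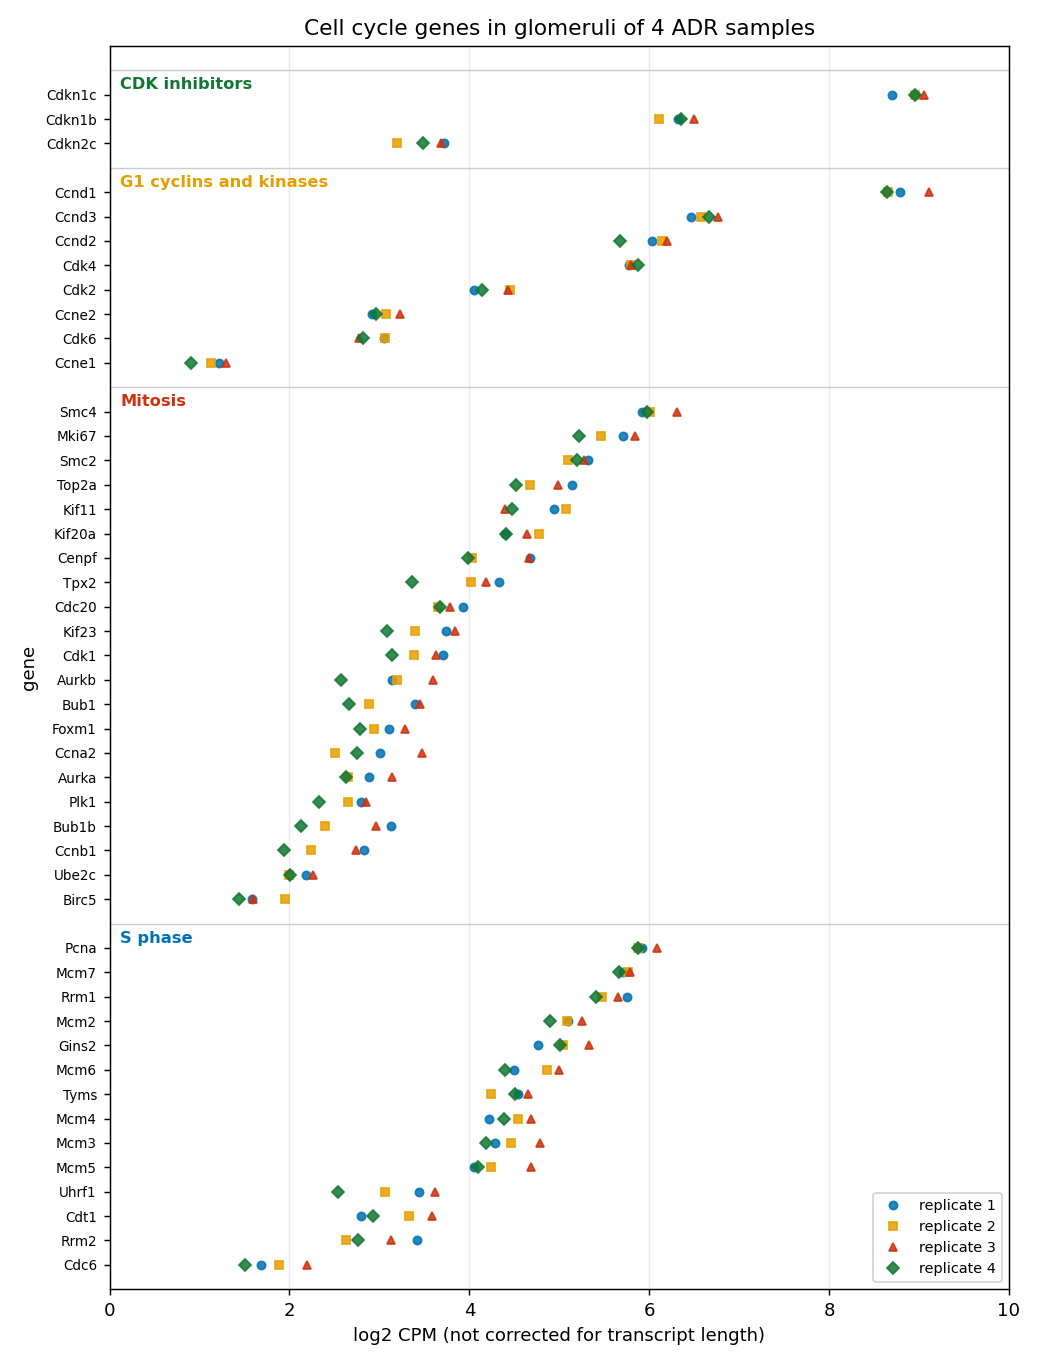
Level of each of the 46 listed genes in each sample, on a log2 CPM axis, grouped by role and sorted by mean; each marker is 1 sample. Genes run from Ccne1, at 1.13 log2 CPM on average, to Cdkn1c, at 8.91 log2 CPM, and the replicate 4 markers lie at the low end in most S-phase and mitosis genes.

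The S-phase and mitosis genes ranked the 4 samples in a largely shared way. None of these 35 genes was highest in replicate 4, where 21.4% of all genes had their highest value, and 22 of the 35 were lowest there, against 13.9% of all genes. Replicate 3 held the highest value of 22 of the 35, against 29.6% of all genes, replicate 1 of 10, against 27.7%, and replicate 2 of 3, against 21.3%. Kendall's W, which is 0 without and 1 with a fully shared order of the samples, was 0.51 over the 35 genes. By group it was 0.61 over the S-phase genes and 0.52 over the mitosis genes, beside 0.01 over all genes. In smaller sets of cell type markers W ran from 0.02 (distal nephron) to 1.0 (podocyte), so a shared order was not particular to the cell cycle genes. W is given as a description, since genes measured in the same 4 libraries are not independent. Without replicate 3, the number highest in replicate 1 was 22 and that in replicate 2 was 13.

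**Figure D2:**
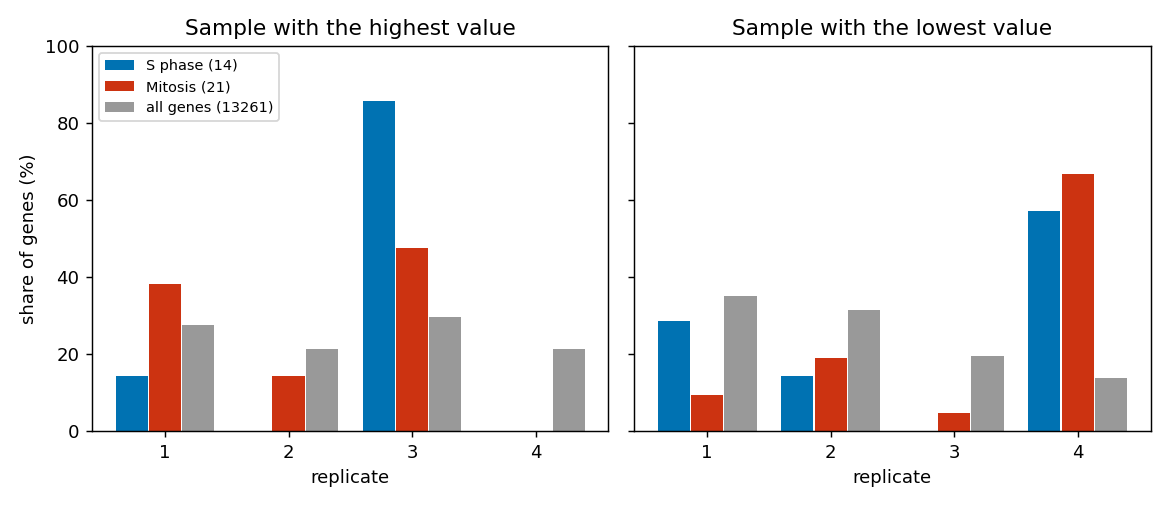
Share of genes, in percent, whose highest (left) and lowest (right) value of the 4 samples fell in each replicate, for 14 S-phase genes, 21 mitosis genes and all 13261 genes. Replicate 3 held the highest value of 12 S-phase genes and 10 mitosis genes, and replicate 4 the lowest of 8 and 14.

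The size of the deviations was averaged within each group, and differences between groups were not tested. Averaged over the S-phase genes, the deviation from each gene's own mean was -0.05, -0.02, 0.26 and -0.19 (log2) in replicates 1 to 4. Over the mitosis genes it was 0.16, -0.07, 0.21 and -0.30. Over all genes these means were -0.02, -0.03, 0.01 and 0.03. Both means were highest in replicate 3 and lowest in replicate 4. The S-phase mean of replicate 2 was near 0 and became 0.03 with mitochondrial genes out of the totals. That change moved replicate 2 by 0.05 (log2), so its mitosis mean of -0.07 also depends on the totals. Replicate 1 exceeded replicate 4 in 19 of 21 mitosis genes and 10 of 14 S-phase genes, beside 43.9% of all genes.

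**Figure D3:**
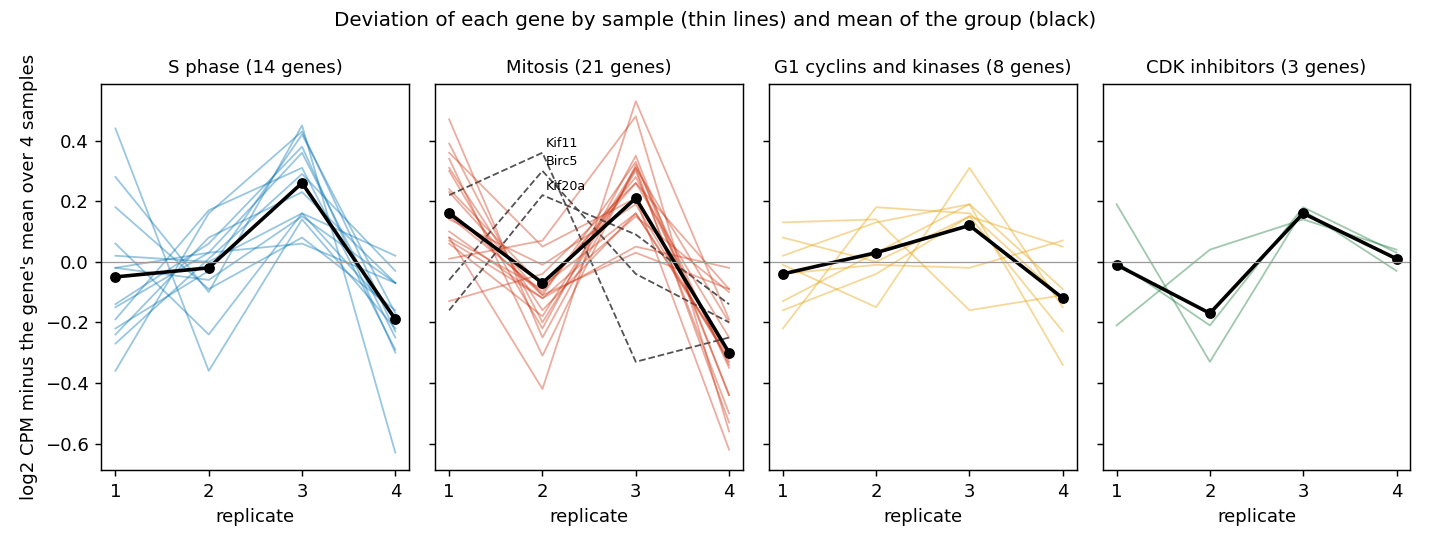
Deviation of log2 CPM from the gene's mean over the 4 samples, by replicate, for the 4 role groups; thin lines join the values of 1 gene, black points and lines give the mean of the group, and dashed lines are Kif11, Birc5 and Kif20a. The mitosis mean lies above 0 in replicate 1 (0.16) and replicate 3 (0.21) and below it in replicate 2 (-0.07) and replicate 4 (-0.30).

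Promoter windows were available for 33 of the 46 genes in RefSeq (GRCr8 build), each with 250 bases before and 50 after the annotated start. Both strands were searched. The E2F letters were TTGGCGC or else TTCCCGC, or further TTCGCGC, or finally TTGCCGC. The CHR letters were TTTGAA or else TTCGAA, and the third motif was CCAAT. Matches can overlap, as the E2F and CCAAT letters do in Mcm7, the CHR and CCAAT letters in Mki67 and the E2F letters of both strands in Mcm6. E2F letters were found in 9 of 11 S-phase genes and 4 of 16 mitosis genes, beside 18.1% of the 9591 table genes with a window. CHR letters were found in 11 of 16 mitosis genes and 3 of 11 S-phase genes, beside 14.0% of table genes. CCAAT was found in 8 of 11 and 13 of 16, beside 38.9%. Over all 33469 windows the shares were 9.52% for E2F letters, 19.7% for CHR letters and 37.5% for CCAAT. A match is a description of letters and not of a bound site.

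The 150 bases before the start are shown for 7 genes. Replication promoters with paired E2F letters (Mcm6, Mcm7) are set beside mitosis promoters with CHR letters and CCAAT (Cdk1, Mki67, Cdc20, Top2a). Kif11 is added because its values departed from those of the group. The classes share letters, since Cdk1 and Mki67 also hold 1 E2F match each. Mcm6 and Mcm7 also hold CCAAT, with 2 and 3 matches. Sequences are 5′ to 3′ on the gene's strand, and capitals mark every match.
Mcm6 (chr13:42404353-42404502, minus strand): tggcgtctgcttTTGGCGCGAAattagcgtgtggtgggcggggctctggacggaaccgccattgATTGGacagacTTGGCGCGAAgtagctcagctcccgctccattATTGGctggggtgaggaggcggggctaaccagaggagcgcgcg
Mcm7 (chr12:22163179-22163328, minus strand): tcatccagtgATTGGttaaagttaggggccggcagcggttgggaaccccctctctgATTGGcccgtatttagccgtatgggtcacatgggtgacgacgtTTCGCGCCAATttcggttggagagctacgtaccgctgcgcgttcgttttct
Cdk1 (chr20:19265143-19265292, plus strand): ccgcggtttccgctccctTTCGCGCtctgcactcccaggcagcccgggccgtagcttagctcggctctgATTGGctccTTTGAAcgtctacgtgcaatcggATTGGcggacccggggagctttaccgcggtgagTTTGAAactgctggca
Mki67 (chr1:199952594-199952743, minus strand): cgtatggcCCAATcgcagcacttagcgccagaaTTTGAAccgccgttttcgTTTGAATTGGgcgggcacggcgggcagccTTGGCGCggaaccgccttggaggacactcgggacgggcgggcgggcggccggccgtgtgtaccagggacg
Cdc20 (chr5:137255800-137255949, minus strand): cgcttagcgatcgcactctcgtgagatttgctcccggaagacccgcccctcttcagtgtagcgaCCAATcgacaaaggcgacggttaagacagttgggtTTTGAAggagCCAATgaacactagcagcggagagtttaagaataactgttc
Top2a (chr10:84473094-84473243, minus strand): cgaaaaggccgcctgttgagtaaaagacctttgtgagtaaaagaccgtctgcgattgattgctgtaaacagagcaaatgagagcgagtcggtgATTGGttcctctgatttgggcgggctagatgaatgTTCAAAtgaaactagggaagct
Kif11 (chr1:244536717-244536866, plus strand): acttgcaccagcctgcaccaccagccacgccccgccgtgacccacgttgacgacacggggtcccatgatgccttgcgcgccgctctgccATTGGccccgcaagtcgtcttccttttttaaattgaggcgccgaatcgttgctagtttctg

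Among the S-phase genes, those of replication licensing and the helicase were all highest in replicate 3. These 9 genes, Mcm2 to Mcm7, Cdc6, Cdt1 and Gins2, were set apart after their values were seen. Their mean deviation was -0.17, 0.06, 0.29 and -0.18 in replicates 1 to 4, with the lowest value in replicate 4 for 5 of them and in replicate 1 for 4. Mcm5, a helicase subunit, had 16.6, 18.8, 25.8 and 17.1 CPM, a 1.55-fold range (mean 19.6 ± 4.25 CPM, SD, n = 4). Replicate 3 stood above the other samples, which lay close together. Mcm6, whose promoter holds 4 E2F matches, overlapping in pairs, in the stretch shown, had 22.6, 29.0, 32.1 and 21.1 CPM, with replicates 2 and 3 above replicates 1 and 4. Cdt1, the loading factor, had 94, 162, 184 and 116 reads. Its highest sample, at 12.0 CPM, was 1.73-fold above its lowest, at 6.93 CPM in replicate 1. Cdc6 was the S-phase gene with fewest reads, 43, 59, 70 and 43, and its spread did not exceed counting error (adjusted p = 0.0864, chi-square test on reads), but did without replicate 2 (adjusted p = 0.0454). Mcm7, another helicase subunit, had 52.2, 54.2, 55.4 and 50.6 CPM, a 1.10-fold range. Gins2, a subunit of the helicase complex, ran from 27.1 CPM in replicate 1 to 40.1 CPM in replicate 3.

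The other 5 S-phase genes had replicates 1 and 3 on top. In each of Pcna, Rrm1, Rrm2, Tyms and Uhrf1, both of these samples exceeded both others, and the mean deviation was 0.19, -0.17, 0.20 and -0.21. Rrm2, the regulated subunit of ribonucleotide reductase, had 10.7, 6.17, 8.73 and 6.76 CPM, and its partner subunit Rrm1 had 53.8, 44.5, 50.1 and 42.4 CPM. Both were highest in replicate 1. Uhrf1, which directs maintenance of DNA methylation at replication forks, had the largest spread of the 46 genes, with 10.8, 8.33, 12.2 and 5.77 CPM and a 2.12-fold range. Pcna, the sliding clamp, had the most reads in the S-phase group and a narrow range, at 60.4, 58.5, 68.0 and 58.4 CPM. Tyms, thymidylate synthase, was lowest in replicate 2 at 18.9 CPM and lay between 22.7 and 25.0 CPM in the other samples.

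Of the 21 mitosis genes, 16 were higher in both replicates 1 and 3 than in both replicates 2 and 4, an arrangement chosen after the values were seen that 11.8% of all genes showed. Among the 14 S-phase genes the number was 6. Mki67, the gene of the Ki-67 proliferation antigen, had 52.4, 44.1, 57.2 and 37.3 CPM (mean 47.7 ± 8.82 CPM, SD, n = 4). Top2a, topoisomerase IIα and a target of doxorubicin, had 35.2, 25.5, 31.7 and 23.0 CPM. Cenpf, a kinetochore protein, split the samples into pairs, with 25.7, 16.3, 25.3 and 15.8 CPM, so that replicates 1 and 3 lay close together, as did the other pair. The mitotic kinase Cdk1 had 177, 169, 189 and 134 reads, and its partner Ccnb1, cyclin B1, had 96, 76, 102 and 58 reads. Both had most reads in replicate 3, but in CPM, which allows for the library totals, both were highest in replicate 1. The checkpoint kinase genes Bub1 and Bub1b had the same arrangement. Bub1b had 8.70, 5.24, 7.75 and 4.33 CPM, a 2.00-fold range, and Bub1 ranged 1.72-fold.

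Kinases, cyclins and assembly factors of mitosis are given next, of which Tpx2, Aurka, Plk1, Foxm1, Ccna2 and Kif23 are among the 16 genes above. Tpx2, a spindle assembly factor, had 20.1, 16.2, 18.2 and 10.2 CPM. Replicate 4 lay below the other samples by more than they differed from each other. Aurkb, Aurora kinase B, had 8.77, 9.13, 12.1 and 5.90 CPM, a 2.05-fold range, with replicate 3 high and replicate 4 low. Aurka and Plk1, also mitotic kinases, had narrower ranges of 6.17 to 8.80 and 4.99 to 7.17 CPM. Foxm1, a transcription factor of mitosis genes, had 8.62, 7.65, 9.77 and 6.82 CPM (104 to 150 reads). Its spread passed the chi-square counting-noise test (adjusted p = 0.0419) but missed the threshold with trimmed-mean scaling (adjusted p = 0.052) or median-of-ratios scaling (adjusted p = 0.0511), without replicate 3 (adjusted p = 0.279) and without replicate 4 (adjusted p = 0.169). Ccna2, cyclin A2, was lowest in replicate 2 at 5.68 CPM and highest in replicate 3 at 11.0 CPM. Kif23, a motor of the central spindle, had 13.3, 10.6, 14.3 and 8.40 CPM.

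Smc2 and Smc4 encode condensin subunits, which compact chromosomes. Smc2 had 39.9, 34.3, 38.6 and 36.7 CPM and Smc4 60.7, 64.5, 79.4 and 62.6 CPM. Their replicate 1 values lay on opposite sides, highest for Smc2 and lowest for Smc4. The spread of Smc4 exceeded counting error (adjusted p = 4.89e-10, chi-square test on reads) and that of Smc2 did not (adjusted p = 0.0847). Both calls turned when 1 sample was left out, with an adjusted p of 0.487 for Smc4 without replicate 3 and of 0.0441 for Smc2 without replicate 4. Cdc20, an activator of the anaphase-promoting complex, had 15.2, 12.5, 13.8 and 12.7 CPM. Ube2c, a ubiquitin-conjugating enzyme of that complex, had 4.5, 3.95, 4.76 and 4.00 CPM. For Cdc20 and Ube2c the spread did not exceed counting error (adjusted p = 0.217 and 0.679, chi-square test on reads).

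Kif11, Kif20a and Birc5 were the 3 genes of the S-phase and mitosis groups with their highest value in replicate 2. Kif11, a kinesin of the bipolar spindle, had 30.7, 33.9, 21.0 and 22.1 CPM. It was the only mitosis gene lowest in replicate 3. Kif20a, a kinesin of cytokinesis, had 21.0, 27.3, 25.0 and 21.3 CPM. Birc5, survivin, had 40, 62, 46 and 41 reads, and its spread did not exceed counting error (adjusted p = 0.342, chi-square test on reads). In RefSeq, Kif11 overlaps Ide, the insulin-degrading enzyme gene, and Kif20a overlaps Cdc23, both on the opposite strand. Ide had 6.12, 6.04, 5.92 and 6.02 log2 CPM, beside 4.94, 5.08, 4.40 and 4.47 for Kif11, and both were lowest in replicate 3. Cdc23 had 5.25, 5.02, 5.23 and 5.29 log2 CPM, lowest where Kif20a was highest. The libraries were stranded, but whether counting used the strand is not given in the sources used here, and the part of the neighbours' reads in these values was not tested. In all, 12 of the 46 genes overlap another protein-coding gene in RefSeq. Of the 7 pairs with a row for both genes, 3 were highest in the same sample, which are Gins2 with Gse1, Rrm2 with Cys1 and Cdk4 with Tspan31. The pairs of Kif11, Kif20a, Aurka and Ccne2 were not. Cys1 had 6.41, 6.22, 5.69 and 5.84 log2 CPM, beside 3.42, 2.63, 3.13 and 2.76 for Rrm2. Cys1 was lowest in replicate 3, where Rrm2 was second to replicate 1. In the 15 mitosis genes without such an overlap, 12 had replicates 1 and 3 above replicates 2 and 4. Among the 26 S-phase and mitosis genes left, 1 was highest in replicate 2, 17 in replicate 3 and 8 in replicate 1.

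The G1 genes followed the same order only in part. Kendall's W was 0.27 over the 8 genes, of which 5 were highest in replicate 3. Ccnd1, cyclin D1, had 441, 402, 554 and 400.1 CPM. Replicate 3 was 1.38-fold above replicate 4, and counting error was small at 5988 to 8497 reads. Ccnd2 had 65.4, 70.6, 73.4 and 51 CPM, with replicate 4 lowest. Ccnd3 had 87.9, 95.3, 109 and 102 CPM, with replicate 1 lowest. The 3 D-type cyclins were thus all highest in replicate 3 but differed in their lowest sample. Cdk4, their kinase partner, varied least of the 46 genes, at 54.8, 55.8, 55.6 and 58.9 CPM, a 1.08-fold range. Cdk6 had 8.26, 8.33, 6.78 and 7.02 CPM, with replicate 3 lowest. Neither Cdk4 nor Cdk6 differed between samples beyond counting error (adjusted p = 0.493 and 0.309, chi-square test on reads). Cdk2 had 16.5, 21.8, 21.5 and 17.6 CPM, with replicates 2 and 3 above the others. The E-type cyclins, its partners, had few reads. Ccne1 had 31, 35, 37 and 28 reads and Ccne2 had 102, 136, 144 and 118, and neither differed between samples beyond counting error (adjusted p = 0.759 and 0.332, chi-square test on reads).

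Cdkn1c and Cdkn1b had many reads in each sample. Cdkn1c (p57) had 415, 493, 529.6 and 494 CPM (mean 483 ± 48.4 CPM, SD, n = 4). Replicate 1 lay below the others, which were within 1.28-fold of it. Cdkn1b (p27) had 80.0, 69, 90.6 and 81.3 CPM, with replicate 2 lowest and replicate 3 highest. Cdkn2c (p18) had 13.1, 9.13, 12.9 and 11.2 CPM, also lowest in replicate 2. The 3 inhibitors did not share the replicate 4 minimum of the S-phase and mitosis genes, with a mean deviation of -0.01, -0.17, 0.16 and 0.01. Whether the role groups differ in this was not tested.

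Spread beyond counting error was found for 35 of the 46 genes, or 12 of 14 S-phase, 16 of 21 mitosis, 4 of 8 G1 and 3 of 3 inhibitor genes (chi-square test of the reads, threshold 0.05 after Benjamini-Hochberg adjustment over all genes). The share over all genes was 69.5%, so that the members' count lies near it. The test gains power with reads: Mki67 passed with an adjusted p of 2.66e-15 at 718 reads on average, whereas Plk1, with 95.2 reads and a 1.43-fold range, did not (adjusted p = 0.102). The median SD, on the log2 CPM scale, was 0.27 for the mitosis genes, 0.25 for the S-phase genes, 0.16 for the G1 genes and 0.18 for all genes. An SD above the median over all genes was found for 17 of 21 mitosis and 9 of 14 S-phase genes, where 50.0% of all genes lie by construction.

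**Figure D4:**
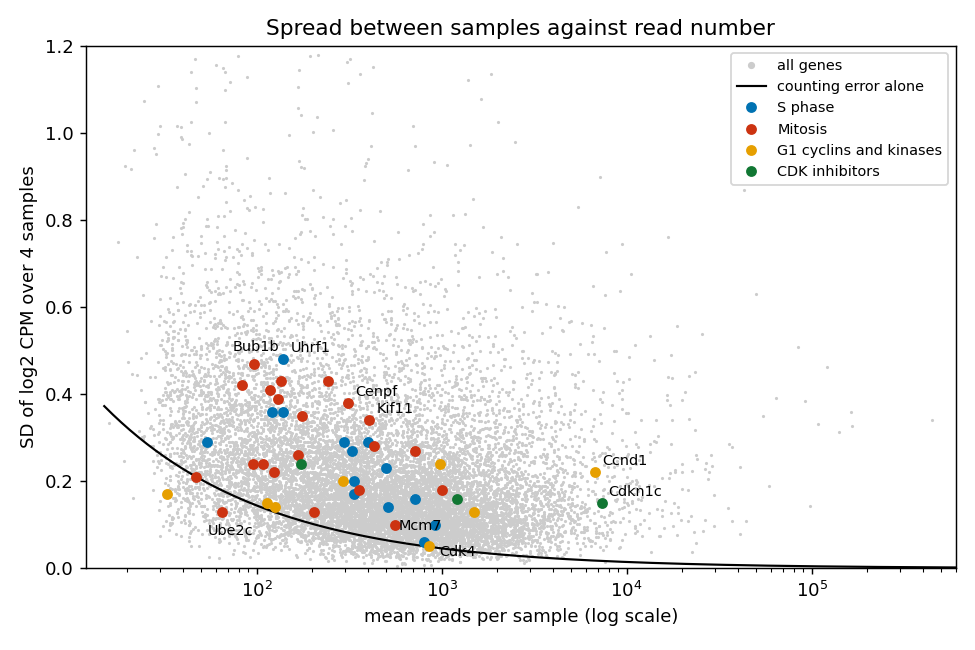
SD of log2 CPM over the 4 samples against mean reads per sample (log scale) for all genes (grey) and the 46 cell cycle genes by role (coloured), with the SD expected from counting error alone (black line). Uhrf1 (0.48) and Bub1b (0.47) lie highest and Mcm7 (0.06) and Cdk4 (0.05) lie close to the line; 33 genes with an SD above 1.2 are outside the axis.

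Variation was also set against that of genes of like abundance. limma's test of residual variance against its abundance trend called 0 of the 46 at an adjusted p under 0.05, as it called 0.0% of all genes. At an unadjusted p under 0.05 it also gave 0 of the 46, beside 5.47% of all genes. The smallest p-values of the set by limma belonged to Tpx2 (0.0873), Cenpf (0.098), Uhrf1 (0.102), Kif11 (0.114) and Aurkb (0.142), with adjusted p-values of 0.94 to 0.956. A Pearson statistic on the reads at a fixed dispersion trend called 1 of the 46, Kif11 (adjusted p = 0.044), beside 7.53% of all genes. At an unadjusted p under 0.05 it gave 7 of the 46, beside 15.9% of all genes. None of the 46 genes had a single sample set apart by Dixon's gap to range ratio, a pattern that 5.08% of all genes showed.

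Other genes of the cycle came from a list of 105, of which 97 had a row. They were highest in replicates 1 to 4 in 18, 14, 53 and 12 cases, where all genes had 27.7%, 21.3%, 29.6% and 21.4%. They were lowest there in 28, 24, 4 and 41 cases, where all genes had 35.0%, 31.5%, 19.6% and 13.9%. Their mean deviation was -0.02, -0.03, 0.16 and -0.11, and W was 0.20. The counting-noise test passed 51 of the 97, fewer than the 69.5% of all genes, at a median of 175 reads. limma called 0 of them, with 0 at an unadjusted p under 0.05, beside 0.0% and 5.47% of all genes. The fixed-trend statistic called 0, with 6 at an unadjusted p under 0.05, beside 7.53% and 15.9% of all genes. A single sample was set apart by Dixon's ratio in 6 of the 97, beside 5.08% of all genes. Pole, the leading-strand polymerase, had 113, 130, 210 and 111 reads, and Cdc25b, a phosphatase that activates CDK1, had 209, 263, 399 and 238 reads, both set high in replicate 3. Racgap1, which acts with Kif23 in cytokinesis, had 121, 78, 115 and 75 reads, the arrangement of Cenpf. Mybl2, which encodes B-MYB, had 54, 54, 74 and 42 reads. The retinoblastoma gene Rb1 and its relative Rbl2 were more even, at 4.91 to 5.07 and 6.20 to 6.49 log2 CPM. Myc had 91 reads in replicate 1 and 164 to 182 in the others.

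Markers of several cell types also differed between the samples. Of 7 leukocyte markers, 5 were highest in replicate 3 and 6 lowest in replicate 1. None was at 0, and their summed level, mostly Cd74, was 812, 981, 886 and 769 CPM. Ptprc, the pan-leukocyte CD45 gene, had 48.4, 66.1, 108 and 70.8 CPM. Cd3e of T cells had 16, 24, 51 and 38 reads. The B-cell gene Cd79b had 23, 45, 179 and 71 reads. The 3 erythroid markers and the 4 endothelial markers with a row were all highest in replicate 3, with sums of 720.0, 906, 1337 and 929 CPM and of 3637, 3834, 4825 and 3978 CPM. Replicate 3 was also the highest for the licensing genes, while the lowest value was in replicate 4 for 1 of the 7 leukocyte, 1 of the 4 endothelial and 0 of the 3 erythroid markers. All 6 podocyte markers were highest in replicate 1 and lowest in replicate 2, and all 5 proximal tubule markers were lowest in replicate 3. Replicate 4 held the highest value of 3 of 4 mesangial markers, whose sum was 1649, 1682, 1769 and 2080 CPM. The 2 tubular injury markers with a row did not share an order, with Vcam1 at 41.6, 28.6, 50.3 and 109 CPM and Lcn2 at 12.5, 29.1, 8.08 and 10.0 CPM. The arrangement of 16 mitosis genes, replicates 1 and 3 above 2 and 4, was found in 1 of the 5 distal nephron markers. None of the podocyte, endothelial, mesangial, parietal, proximal tubule, leukocyte, erythroid and tubular injury markers showed it, beside 11.8% of all genes. It was chosen from the mitosis genes after their values were seen, and the marker sets are small, so these counts tell little. The part of cell composition in the order of the cell cycle genes was not tested.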

How the data were processed

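The deposited table holds log2 values, 1 per gene and sample. The submitters' processing notes name HISAT2, featureCounts, Subread and limma and the build Rnor_6.0, without roles or versions; the use of strand and the filter on low genes are not given in the sources used here. Of 13265 rows, 4 with displaced cells were left out. In the deposited values, 2 raised to the log2 value was a whole number of reads plus 0.5, times a constant per sample, within 0.01 reads for 100% of values, so reads were recovered. A single read was worth 0.0617 to 0.0737 CPM. Columns were matched to samples by title; 0 value columns belonged to no sample. Replicate numbers follow accession order.

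Counting noise was tested per gene by comparing reads with Poisson sampling at the library totals (chi-square, 3 degrees of freedom), and excess variance with limma 3.58.1 (R 4.3.3) on log2(CPM + 1), intercept only, with an abundance trend. Both ran over all 13261 genes with Benjamini-Hochberg adjustment and a threshold of 0.05. The fixed-trend statistic, on the recovered reads, set the dispersion in 40 bins of mean reads, in place of the count-model trend that was planned. The tests were tried on simulated data, where limma's test missed most of the smaller differences put in. Genes given sample by sample include, per role, the 3 highest and 3 lowest means, the 2 largest and 2 smallest SDs and, over all 46, the 5 smallest limma p-values; others were named after their values were seen. The genes and lists were chosen with earlier results of these data known. Alternatives were scaling, filter, pseudocount, prior and leaving out each replicate.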

Additional observations from a re-analysis of the deposited data

How the results depend on the processing

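No paired analysis was possible because all samples belong to a single group. The number of genes beyond counting noise was 35, and between 27 (without replicate 3) and 35 when a single replicate was omitted. Without replicate 3 the calls of Aurka, Ccna2, Foxm1, Mcm2, Mcm3, Mcm5, Pcna and Smc4 were lost, without replicate 4 those of Ccnd2, Cdk1, Foxm1, Mcm2 and Tpx2, and without replicate 2 those of Cdkn2c, Kif20a and Tyms. Cdc6 (without replicate 2), Smc2 (without replicate 4) and Mcm7 (mitochondrial genes out) passed in addition. It was 34 with trimmed-mean or median-of-ratios scaling and 36 with mitochondrial genes out of the totals. limma called 0 of the 46 genes with each other scaling, filter, pseudocount, prior and omitted replicate, and the fixed-trend statistic on reads called 1. Leaving out a replicate moved the number of S-phase and mitosis genes highest in replicate 1 between 10 and 22 and in replicate 2 between 3 and 13, since the genes highest in an omitted replicate 3 pass to another sample. Without genes that overlap a coding gene, an alternative added after the data were seen, the number highest in replicate 2 was 1. The number highest in replicate 4 was 0 in each of these. Taking mitochondrial genes out of the totals raised the median level from 4.27 to 4.41 log2 CPM; scaling shifted single samples from their common centre by at most 0.05 (log2). For genes with fewer than about 100 reads per sample, counting error limits what can be seen.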
